A study of Macaca fascicularis with 6 samples.

Results

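The genes described here serve the calcium store and egg activation and were read in oocytes of the cynomolgus monkey (Macaca fascicularis); they are 10 of the 28164 genes in the deposited count table. They were chosen by symbol: the IP3 receptors ITPR1, ITPR2 and ITPR3, the store sensors STIM1 and STIM2, the membrane channel ORAI1, the store pump ATP2A2, the calcium-dependent kinases CAMK2G and CAMK2D, and the channel TRPM7. The oocytes fell into 3 groups of 2 libraries each: germinal vesicle (GV) oocytes, which are immature and arrested in the first meiotic prophase, metaphase II oocytes matured in vitro (IVM MII), and metaphase II oocytes matured in vivo (IVO MII). All were labelled wild type, untreated and stripped of their surrounding cells. The sources used here give no age, hormone treatment or culture medium, nor how many oocytes or animals make up a library, so p-values measure only the spread between these libraries, which may be technical.

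An egg waits at metaphase II until the sperm sets off a series of calcium rises. Phospholipase C of the sperm makes inositol trisphosphate (IP3), which opens IP3 receptors in the endoplasmic reticulum, and SERCA pumps then refill that store. Depletion of the store is sensed by STIM proteins, which open ORAI channels in the plasma membrane, and in mouse eggs TRPM7 is among the channels that bring calcium in. The rises are read by calmodulin-dependent kinase II, whose gamma form serves egg activation in the mouse and which leads to destruction of the arrest factor EMI2. Sensitivity of the store to IP3 is known to increase as oocytes mature.

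Levels below are CPM, the counts of a gene relative to the TMM-scaled total of its library, as means of n = 2 libraries ± SD unless libraries are named, and fold changes and adjusted p-values are those of edgeR's quasi-likelihood test over all 15815 genes tested. The libraries held 27707021 to 35515139 counts, and 3 counts in a library correspond to 0.0695 to 0.116 CPM. The 10 oocyte markers all had counts, with sums of 28765 and 34945 CPM in GV, 13807 and 15835 in IVM MII and, in IVO MII, 7826 and 10157. The 14 cumulus and granulosa markers summed to 40.5 and 34.9 CPM in GV, 88.2 and 86.2 in IVM MII and, in IVO MII, 36.9 and 53.4, with 5 to 10 of the 14 having a count in a given library and AMHR2, FOXL2 and PTX3 at 0 in all. Between the MII groups 6 of the 14 were tested, 3 of which (GREM1, RUNX2 and TNFAIP6) were higher in IVM MII, and the libraries of HAS2 overlapped. The 11 theca, stroma and endothelium markers summed to between 83.9 and 386 CPM, with CYP17A1 and STAR at 0. Most of the GV sums came from VWF (288 and 337 CPM), which was lower in both MII groups, whereas PECAM1 was 2.08-fold higher in IVM MII than in GV. Of 8 blood cell markers in the table, those at 0 in all libraries included CD3E, HBB, ALAS2 and PPBP, and the list summed to at most 0.386 CPM. The part of these other cell markers in the results below was not tested. Since priming was on poly(A) tails, a change in RNA amount and a change in tail length cannot be told apart.

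Maturation by either route came with higher CPM of the kinase CAMK2G and the pump ATP2A2 and with much lower CPM of ORAI1. CPM are relative to the scaled total of a library and do not give amounts per oocyte. The routes differed in the IP3 receptors ITPR1 and ITPR3 and in the store sensors, while ITPR2 did not pass. ITPR1 was higher, and ITPR3, STIM1 and STIM2 were lower, in IVM MII than in IVO MII. The STIM2 call ended in 9 of 14 alternative analyses, and those of ITPR1 and ITPR3 in 2 of 15 each. STIM1 rested on 4 counts over both IVM MII libraries. Of the 9 members with enough counts to be tested, 3 rose and 3 fell from GV to IVM MII, where 50.3% of all genes tested passed, 25.6% upward and 24.7% downward. From GV to IVO MII 3 rose and 2 fell, against 58.5% of all genes, 28.1% upward and 30.5% downward. Between IVM MII and IVO MII 1 member was higher and 3 were lower in IVM MII, against 24.6% of all genes, 14.3% higher and 10.3% lower. The median log2 fold changes of the 9 members in these comparisons were 0.31, 0.43 and -0.38, beside 0.06, -0.07 and 0.02 over all genes tested. Each pair of comparisons shares the libraries of 1 group.

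**Figure D1:**
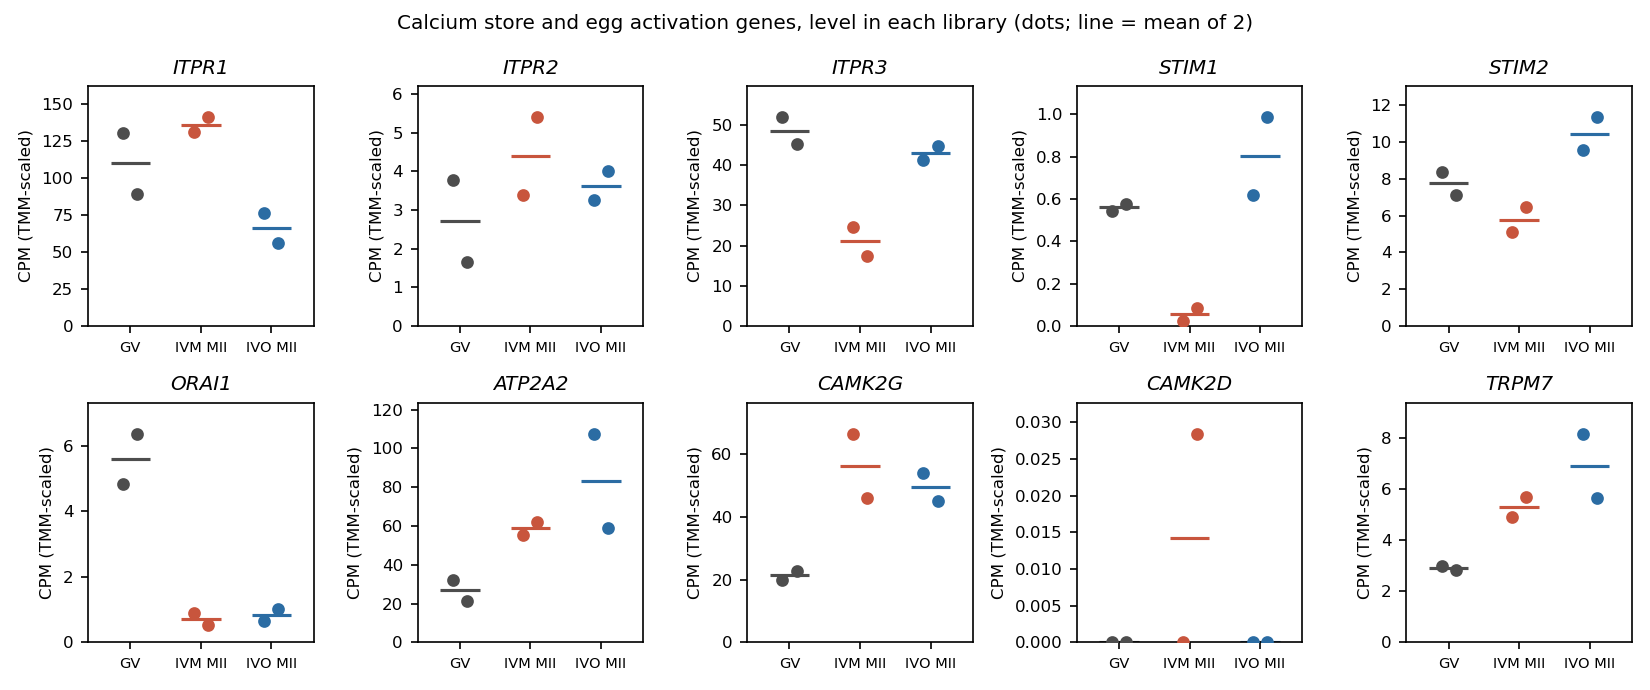
Level of each of the 10 genes in CPM (vertical axes, linear from 0, scaled per gene) in the 2 libraries (dots) of each group, with a line at the mean. ORAI1 sits at 4.84 and 6.36 CPM in GV and at or below 1.02 in all MII libraries, and STIM1 is at 0.0852 CPM or less in IVM MII; the axis of CAMK2D spans a single count.

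Among the IP3 receptors, the release channels of the store, ITPR1 was the main transcript in every group. On macFas5 ITPR1 lies on chromosome 2, 135384135 to 135738460 on the plus strand, with 9892 exonic bases, of which 63 are shared with exons of LOC102121980. ITPR1 stood at 130.2 and 89.2 CPM in GV oocytes, at 131 and 141 CPM after IVM, and at 76.0 and 55.7 CPM after IVO maturation. Both IVO MII libraries lay below all others, and the IVM MII libraries lay just above those of GV. ITPR1 was 1.67-fold lower in IVO MII than in GV (log2 fold change -0.74 ± 0.25 SE, adjusted p = 0.0244), and the call ended without GV replicate 1 (-0.43, adjusted p = 0.234) or IVO MII replicate 2 (-0.52, adjusted p = 0.174). Against GV, IVM MII had a log2 fold change of 0.31 ± 0.25, which did not pass (adjusted p = 0.319). ITPR1 was 2.06-fold higher in IVM MII than in IVO MII (1.05 ± 0.25, adjusted p = 0.0111), with log2 fold changes of 1.00 and 0.85 and adjusted p of 0.0681 and 0.0576 without IVM MII replicate 2 and without IVO MII replicate 2.

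ITPR3, the form known best from epithelia, went the other way between the routes. It lies on chromosome 4, 137119373 to 137194853 on the minus strand, and 80 of its 8860 exonic bases are shared with LOC107129566. ITPR3 stood at 52.0 and 45.3 CPM in GV, 24.7 and 17.5 in IVM MII and, in IVO MII, 41.2 and 44.7. The IVM MII libraries were the lowest pair and overlapped neither other group. ITPR3 fell 2.30-fold from GV to IVM MII (log2 fold change -1.20 ± 0.24, adjusted p = 0.00155), and its difference of -0.18 ± 0.23 between IVO MII and GV did not pass (adjusted p = 0.531). In IVM MII it was 2.03-fold lower than in IVO MII (-1.02 ± 0.24, adjusted p = 0.00917), a call that ended under scaling by library totals (-0.79, adjusted p = 0.0628) and without IVM MII replicate 2 (-0.80, adjusted p = 0.0925).

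ITPR2, the third receptor form (chromosome 11, 27005347 to 27513801, minus strand), was rare. Its libraries held 3.78 and 1.66 CPM in GV, 3.38 and 5.40 in IVM MII and, in IVO MII, 3.25 and 4.01. The groups overlapped, and no comparison passed (log2 fold changes of 0.69 ± 0.42, 0.42 ± 0.43 and 0.27 ± 0.42, adjusted p = 0.191, 0.419 and 0.668 for IVM MII against GV, IVO MII against GV and IVM MII against IVO MII). The spread between the GV libraries was wide, and without GV replicate 1 the comparison of IVM MII with GV passed (log2 fold change 1.41, adjusted p = 0.0434).

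The make-up of the receptor family is measured within a library and so does not depend on scaling between libraries. It was chosen after the values were seen and uses the same counts. Its difference between the routes thus follows from those of ITPR1 and ITPR3 above and adds no separate support. ITPR1 gave 70.0% (95% exact interval 68.8 to 71.2) and 65.5% (64.0 to 67.0) of the fragments of the 3 ITPR genes in GV. In IVM MII it gave 82.4% (81.4 to 83.3) and 86.0% (85.1 to 86.9), and in IVO MII 63.1% (61.4 to 64.8) and 53.3% (51.6 to 55.1). The intervals cover counting error only, and they are narrower than the gaps between replicates. ITPR3 gave 27.9% and 33.3% in GV, 15.5% and 10.7% in IVM MII and, in IVO MII, 34.2% and 42.8%. Per length of exon, ITPR1 was 2.24 and 1.76 times ITPR3 in GV, 4.76 and 7.19 times in IVM MII, and 1.65 and 1.12 times in IVO MII. With 2 libraries a group an exact permutation test of such shares cannot pass 0.05, so none was made; the 3 groups did not overlap in the share of ITPR1.

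**Figure D2:**
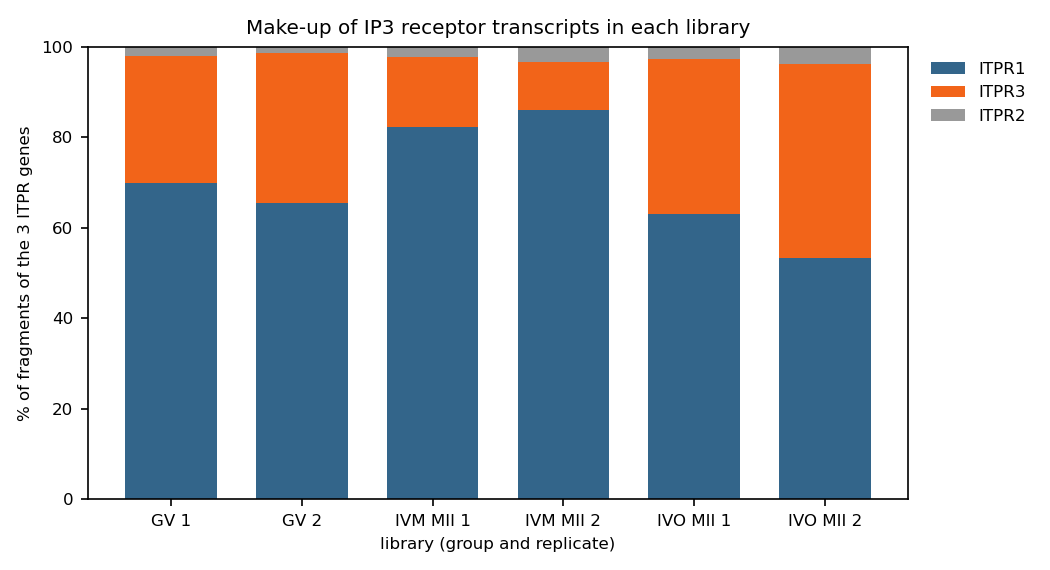
Share of fragments (percent, vertical axis from 0 to 100) given by ITPR1, ITPR3 and ITPR2 in each of the 6 libraries (horizontal axis). ITPR1 reaches 82.4% and 86.0% in the IVM MII libraries and at most 70.0% in the others.

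The store sensors differed between the MII groups as well. STIM2, the sensor that answers small falls of store calcium (chromosome 5, 26091840 to 26257246, plus strand), stood at 8.38 and 7.14 CPM in GV, 5.12 and 6.45 in IVM MII and, in IVO MII, 9.55 and 11.3. The groups did not overlap, with IVM MII lowest and IVO MII highest. Neither difference from GV passed (log2 fold change -0.42 ± 0.28, adjusted p = 0.217 for IVM MII, and 0.43 ± 0.27, adjusted p = 0.197 for IVO MII). STIM2 was 1.81-fold lower in IVM MII than in IVO MII (-0.85 ± 0.28, adjusted p = 0.0414), but this call ended in 9 of 14 alternatives, among them the omission of any 1 of the 6 libraries (adjusted p from 0.0557 to 0.212) and library totals (adjusted p = 0.121).

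STIM1, the sensor that couples to ORAI1 on deeper depletion (chromosome 14, 66549336 to 66770286, minus strand), was near the limit of detection. It had 16 and 17 counts in GV, 1 and 3 in IVM MII and, in IVO MII, 16 and 29, or 0.545 and 0.575, 0.0232 and 0.0852, and 0.618 and 0.985 CPM. Over both libraries its scaled counts were 10.97 times as high in GV as in IVM MII (95% counting interval 3.90 to 42.6) and 15.9 times as high in IVO MII as in IVM MII (5.81 to 61.0); these intervals cover counting error only and hold no spread between libraries. Both differences passed, with adjusted p = 0.00528 and 0.00494, in all 14 alternatives that kept STIM1. IVO MII and GV had a log2 fold change of 0.52 ± 0.62 (adjusted p = 0.490). STIM2 gave 92.0% to 99.5% of the fragments of the 2 STIM genes in all libraries.

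ORAI1, the pore of store-operated calcium entry (chromosome 11, 125646437 to 125661871, plus strand), fell by both routes. It stood at 4.84 and 6.36 CPM in GV, 0.903 and 0.540 in IVM MII and, in IVO MII, 0.657 and 1.02. The MII groups overlapped each other, and both lay far below GV. The fall was 7.66-fold to IVM MII (log2 fold change -2.94 ± 0.43, adjusted p = 2.46e-04) and 6.62-fold to IVO MII (-2.73 ± 0.44, adjusted p = 2.61e-04). Both falls passed in each of the 14 alternatives that kept ORAI1, with log2 fold changes from -3.32 to -2.44. The MII groups had a log2 fold change of -0.21 ± 0.45 (adjusted p = 0.763), which at this error allows a difference of either sign. ORAI2 and ORAI3, the other members of the family, had 0 counts in every library, where 3 counts would be at most 0.116 CPM; they were named after their values were seen.

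ATP2A2, which encodes the SERCA2 pump that refills the store (chromosome 11, 113863949 to 113938383, plus strand), rose by both routes. Its libraries held 32.1 and 21.6 CPM in GV, 55.6 and 61.9 in IVM MII and, in IVO MII, 107 and 58.9. All 4 MII libraries lay above both GV libraries, and IVO MII replicate 1 stood apart from its partner. The rise was 2.19-fold to IVM MII (log2 fold change 1.13 ± 0.30, adjusted p = 0.00841) and 3.10-fold to IVO MII (1.63 ± 0.30, adjusted p = 7.25e-04). Without GV replicate 2 the rise to IVM MII was 0.88 with an adjusted p of 0.0686. IVM MII against IVO MII did not pass (-0.50 ± 0.30, adjusted p = 0.237), though it did without IVO MII replicate 2 (-0.86, adjusted p = 0.0381). ATP2A2 gave 93.3% and 94.8% of the fragments of the 3 SERCA genes in GV and 98.6% to 99.3% in the MII libraries.

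**Figure D3:**
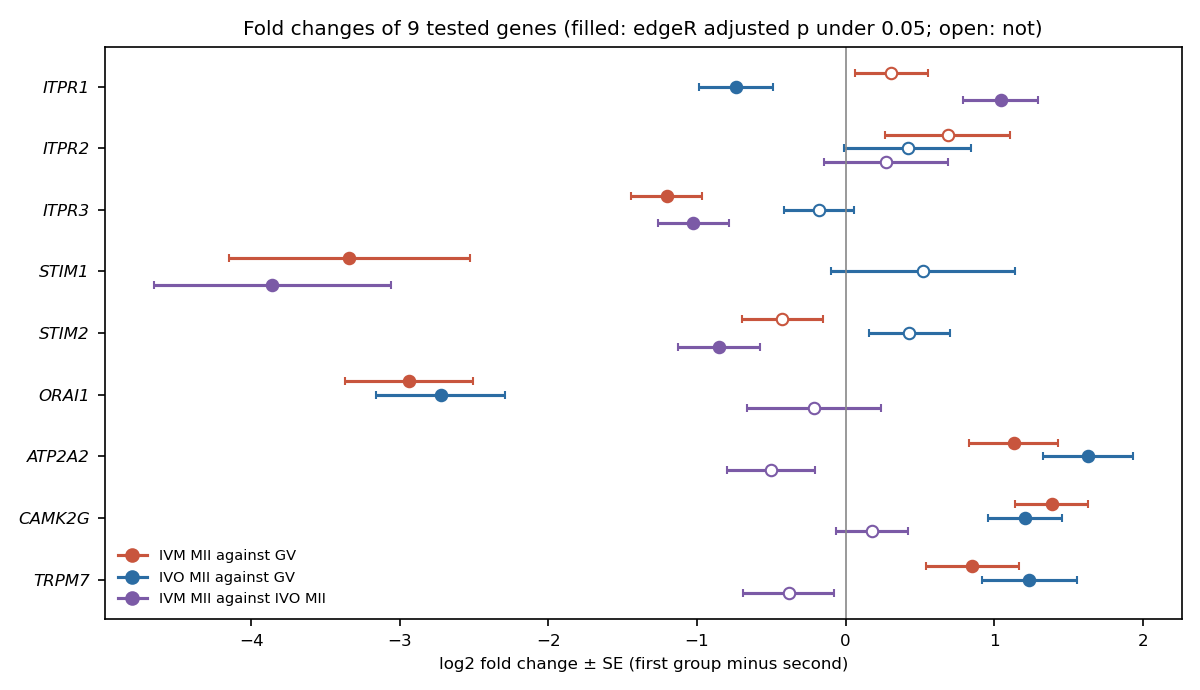
log2 fold changes with standard errors (horizontal axis) of the 9 tested genes in the 3 comparisons (colours); filled points passed at an adjusted p under 0.05. ORAI1, ATP2A2, CAMK2G and TRPM7 have filled points on the same side of 0 in both comparisons with GV. ITPR1, ITPR3, STIM1 and STIM2 have a filled point for IVM MII against IVO MII.

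CAMK2G, the gamma form of the kinase that reads the calcium signal (chromosome 9, 61745120 to 61808201, plus strand), also rose by both routes. It stood at 19.99 and 22.8 CPM in GV, 66.3 and 45.8 in IVM MII and, in IVO MII, 53.9 and 45.1. The MII groups overlapped and both lay above GV. CAMK2G rose 2.62-fold to IVM MII (log2 fold change 1.39 ± 0.25, adjusted p = 8.27e-04) and 2.31-fold to IVO MII (1.21 ± 0.25, adjusted p = 0.00133), in all 15 alternatives. The difference between the MII groups was 0.18 ± 0.24 (adjusted p = 0.618). CAMK2G gave 99.5% or more of the fragments of the 4 CAMK2 genes in each library. CAMK2D, the delta form (chromosome 5, 112852190 to 113160807, minus strand), had 1 count over the 6 libraries, in IVM MII replicate 2, and was not tested. None of its 6241 exonic bases is shared with exons of another gene in the table.

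TRPM7, a channel joined to a kinase domain (chromosome 7, 27543881 to 27678019, minus strand), was low and higher after maturation. It stood at 3.00 and 2.84 CPM in GV, 4.88 and 5.68 in IVM MII and, in IVO MII, 8.16 and 5.64. All MII libraries lay above GV and the MII groups overlapped. TRPM7 rose 2.36-fold to IVO MII (log2 fold change 1.24 ± 0.32, adjusted p = 0.00545) in all 14 alternatives that kept it. The rise to IVM MII was 1.81-fold (0.85 ± 0.31, adjusted p = 0.0398) and lost its call in 9 of 14 alternatives, including RLE factors (adjusted p = 0.0513), DESeq2 (adjusted p = 0.0603), the gene length offset (0.57, adjusted p = 0.141) and the omission of any GV or IVM MII library (adjusted p from 0.0571 to 0.164). The MII groups had a log2 fold change of -0.38 ± 0.31 (adjusted p = 0.387).

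Levels of different members were set side by side per kilobase of exon, in CPM per kb. In GV the order ran from ITPR1 (11.1 ± 2.93) through ITPR3 (5.49 ± 0.530), CAMK2G (5.46 ± 0.512), ATP2A2 (4.03 ± 1.12), STIM2 (1.94 ± 0.220), ORAI1 (1.90 ± 0.366), TRPM7 (0.401 ± 0.0151) and ITPR2 (0.218 ± 0.121) to STIM1 (0.125 ± 0.00474). The libraries of ITPR3 and CAMK2G, and of STIM2 and ORAI1, overlapped, and the other neighbours did not. In IVM MII CAMK2G (14.3 ± 3.70) and ITPR1 (13.7 ± 0.697) led and overlapped, ahead of ATP2A2 (8.83 ± 0.679). In IVO MII CAMK2G (12.6 ± 1.59) and ATP2A2 (12.5 ± 5.17) led and overlapped, ahead of ITPR1 (6.66 ± 1.45). ORAI1 stood above 46.4% of the genes tested in GV and above 17.5% and 20.7% in IVM MII and IVO MII, while ATP2A2 went from 59.6% to 72.0% and 77.0%.

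**Figure D4:**
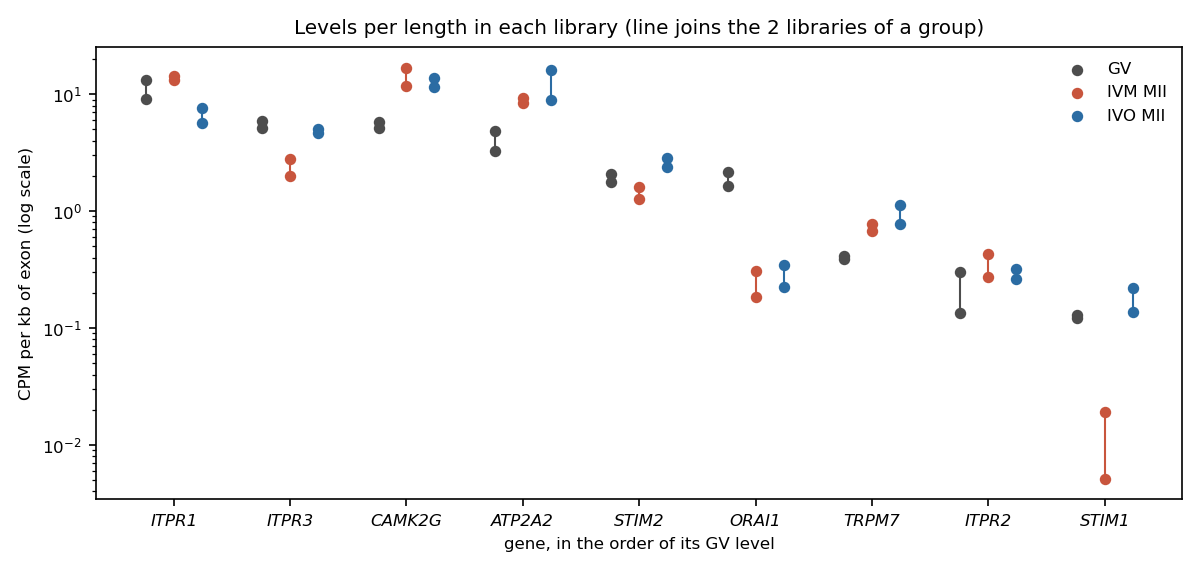
Level per length in CPM per kb of exon (vertical axis, log scale) of 9 genes, ordered by their GV level, in the 2 libraries of each group (dots joined by a line). ITPR1 leads in GV, and CAMK2G and ATP2A2 lie above it in IVO MII; CAMK2D, with 1 count in all, is not drawn.

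The genes whose pattern over the 6 libraries was most like that of ITPR1, by the distance between centred log2 CPM, were AP3M1 (0.23), ZNF571 (0.24) and MICAL2 (0.26), among 5875 genes with a symbol and a mean of at least 10 CPM. They stood at 54.8, 68.4 and 21.2 CPM in GV, in the same order at 70.4, 88.2 and 28.9 in IVM MII, while IVO MII had 37.8, 46.4 and 13.5. Each was highest in IVM MII and lowest in IVO MII, which follows from their choice by likeness to ITPR1. No member passed in all 3 comparisons, and likeness was computed for ITPR1 alone.

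The members were read against 8 lists of other calcium genes, which held 101 genes, 98 of them in the table and 73 tested. From GV to IVM MII 15 of the 73 rose and 16 fell, and from GV to IVO MII 22 rose and 20 fell. Between the MII groups 9 were higher and 6 lower in IVM MII. These shares of 42.5%, 57.5% and 20.5% stand beside the 50.3%, 58.5% and 24.6% of all genes tested. Their median log2 fold changes were 0.13, 0.21 and -0.18. With library totals in place of TMM, the median over all genes went from 0.06 to 0.35 (log2) for IVM MII against GV and from 0.02 to 0.24 for IVM MII against IVO MII, and this gave 21 list genes up and 10 down in the first and 11 higher and 3 lower in the second. Over all genes the share of higher among called genes went from 50.9% to 63.7% and from 58.0% to 75.8%.

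In the list of calmodulin, kinases and calcineurin, 6 of 18 tested genes rose and 1 fell to IVM MII, and 9 rose and 2 fell to IVO MII. In IVM MII 1 was higher and 1 lower than in IVO MII. Of all genes tested, 25.6% rose and 24.7% fell to IVM MII, and 28.1% rose and 30.5% fell to IVO MII. Those higher and lower in IVM MII than in IVO MII were 14.3% and 10.3%. The counts of the lists below stand beside these same shares. FBXO43, which encodes EMI2, the arrest factor that calmodulin-dependent kinase II marks for destruction, stood at 10.4 and 8.32 CPM in GV, 42.0 and 42.5 in IVM MII and, in IVO MII, 45.5 and 44.8. It rose 4.52-fold and 4.84-fold (adjusted p = 2.41e-05 and 1.34e-05). RCAN1, an inhibitor of calcineurin, rose 2.25-fold and 2.64-fold. CALM3, 1 of 3 genes for the same calmodulin protein, fell 4.22-fold and 5.12-fold.

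In the list of pumps and exchangers, 1 of 8 rose and 1 fell to IVM MII, and 3 rose and 1 fell to IVO MII. The MII groups differed in 3, all lower in IVM MII. ATP2B1, a pump of the plasma membrane, stood at 88.5 and 65.0 CPM in GV, 164 and 156 in IVM MII and, in IVO MII, 311 and 280. It rose 2.09-fold and 3.85-fold, and was 1.84-fold lower in IVM MII than in IVO MII (log2 fold change -0.88, adjusted p = 0.0156), a call that ended under library totals (adjusted p = 0.0658) and without IVM MII replicate 1 (adjusted p = 0.0756), IVM MII replicate 2 (adjusted p = 0.0970) or IVO MII replicate 1 (adjusted p = 0.0583). ATP2C2, a pump of the secretory pathway, stood at 26.01 and 25.6 CPM in GV, 40.7 and 29.4 in IVM MII and, in IVO MII, 104 and 92.6. It rose 3.81-fold to IVO MII and was 2.81-fold lower in IVM MII than in IVO MII (adjusted p = 9.59e-04).

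Of the 13 tested receptor regulators and other store channels, 3 rose and 3 fell to IVM MII, and 4 rose and 4 fell to IVO MII. The MII groups differed in 1, lower in IVM MII. TMCO1, a channel that leaks calcium from an overfilled store, rose 3.40-fold and 3.59-fold, with mean levels of 58.3 CPM (GV), 198 CPM (IVM MII) and 209 CPM (IVO MII). LRMP, a membrane protein of the endoplasmic reticulum, rose 1.98-fold and 3.19-fold. Of 5 tested binders of calcium in the store lumen, 1 rose and 2 fell to IVM MII, and 2 rose and 2 fell to IVO MII. The MII groups differed in 1, higher in IVM MII. CALR, the buffer calreticulin of that lumen, stood at 73.7 and 54.1 CPM in GV, 40.2 and 38.6 in IVM MII and, in IVO MII, 17.5 and 18.2. It fell 3.58-fold to IVO MII (adjusted p = 5.77e-05) and was 2.21-fold higher in IVM MII than in IVO MII (adjusted p = 0.00431). CALR also fell 1.62-fold to IVM MII (log2 fold change -0.70, adjusted p = 0.0230), a call that ended without GV replicate 1 (-0.45, adjusted p = 0.228), without either IVM MII library (-0.69 and -0.65), under library totals (-0.40) and with the gene length offset (-0.41).

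**Figure D5:**
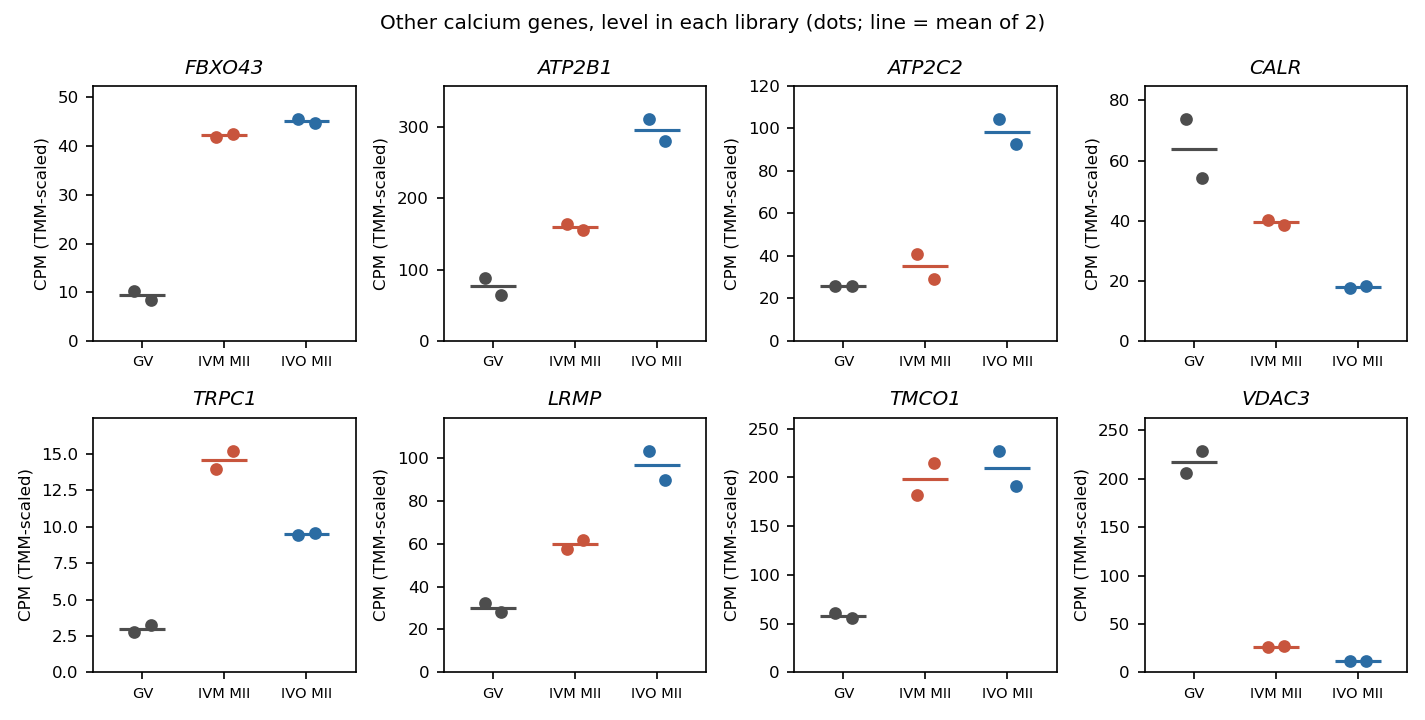
Level in CPM (vertical axes, linear from 0, scaled per gene) of 8 calcium genes outside the 10 in the 2 libraries (dots) of each group, with a line at the mean. ATP2C2 is at 40.7 and 29.4 CPM in IVM MII and at 104 and 92.6 CPM in IVO MII, and CALR falls from 73.7 and 54.1 CPM in GV to 17.5 and 18.2 in IVO MII.

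Of 8 tested plasma membrane channels, 2 rose and 3 fell to IVM MII, and 2 rose and 2 fell to IVO MII. In IVM MII 2 were higher and 1 lower than in IVO MII. TRPC1, a channel subunit, rose 4.85-fold and 3.16-fold, from 3.00 CPM in GV, and CACNA1D, a voltage-gated channel, fell 2.65-fold and 2.86-fold. Of 8 tested genes of mitochondrial calcium uptake, 1 rose and 4 fell to IVM MII, and 1 rose and 5 fell to IVO MII. The MII groups differed in 3, all higher in IVM MII. VDAC3, a channel of the outer membrane, stood at 206 and 229 CPM in GV, 26.4 and 27.1 in IVM MII and, in IVO MII, 11.4 and 11.3, so it was 2.35-fold higher in IVM MII than in IVO MII (adjusted p = 0.00167). Of 10 tested genes of IP3 production and removal, 1 rose and 1 fell to IVM MII, and 1 rose and 3 fell to IVO MII. The MII groups differed in 2, higher in IVM MII. INPP1, a phosphatase of inositol phosphates, was 8.02-fold higher in IVM MII than in IVO MII (adjusted p = 1.72e-04), but a second row of the table is listed under the same gene, so its reads may be split. In the list of store-operated entry partners, 3 genes were tested, and CRACR2A, below 1 CPM in each group, was the single one to pass, downward, in each comparison with GV. Its call for IVM MII against GV ended under library totals (adjusted p = 0.0622), without the low-count filter (adjusted p = 0.0664), with DESeq2 (adjusted p = 0.127), with the replicate block (adjusted p = 0.0631) and without any 1 of the GV or IVM MII libraries (adjusted p from 0.115 to 0.207).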

How the data were processed

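RNA of 6 oocyte libraries was primed on poly(A) tails, template-switched, amplified and sequenced. The authors deposited raw counts of fragments per gene; per the file headers, featureCounts 2.0.1 made them over exons of the macFas5 RefSeq annotation, without strand, and the submitters' processing notes also name fastp, FastQC, Bowtie2 and SAMtools. Bowtie2 does not split reads over introns, and paralogs may share reads. Gene lengths (exonic bases) were deposited with the counts. edgeR 4.0.16 in R 4.3.3 filtered genes (filterByExpr, 15815 kept), computed TMM factors (0.903 to 1.22) and fitted 3 group terms to all 6 libraries with robust quasi-likelihood dispersions. The residual degrees of freedom were 3. Tests were two-sided, with Benjamini-Hochberg adjustment over all genes tested at 0.05. Standard errors follow from the F statistic. The members and lists were chosen with earlier results of these data known, and the family shares after the values were seen. All 10 members were named. Of each list, up to 3 genes per direction and comparison, by adjusted p, could be named. Of the list genes, 2 were matched by gene number in a RefSeq gene table. The alternatives were DESeq2 1.42.0, limma-voom (limma 3.58.1), RLE factors, library totals, no filter, a stricter filter (at least 10 CPM in any 2 libraries), a gene length offset, a replicate block, fits of just the 4 libraries compared and each library left out, which assumes that the lone library varies like the other groups. Figures used matplotlib 3.10.9.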

Additional observations from a re-analysis of the deposited data

Results flagged for a closer look

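For 4 members the change from GV differed between the routes, by the test of IVM MII against IVO MII (edgeR, adjusted over all genes). ITPR1 had a log2 fold change of 1.05 in that comparison, with 0.31 for IVM MII and -0.74 for IVO MII against GV. ITPR3 had -1.02, with -1.20 and -0.18 against GV. The calls of ITPR1 and ITPR3 between the routes each ended in 2 of 15 alternatives. STIM2 had -0.85, with -0.42 and 0.43 against GV, neither of which passed, and its call between the routes ended in 9 of 14 alternatives. STIM1 had a fitted -3.86, which rests on 4 counts over both IVM MII libraries. Of the 6 cumulus and granulosa markers tested, GREM1, RUNX2 and TNFAIP6 were higher in IVM MII than in IVO MII and 3 did not pass; their part in these 4 results was not tested.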

How the results depend on the processing

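Over 390 member results under the alternatives, 363 kept their side of the threshold, 25 lost a call, 2 gained one and 0 called values changed sign. Library totals gave 2 members called between the MII groups in place of 4. Over all genes tested, this scaling called 3697 in place of 3895. Upward calls for IVM MII went from 2260 to 2803, and downward calls from 1635 to 894. The members that lost their call, ITPR3 and STIM2, had both been called downward. The filter of 10 CPM tests 8048 genes and left 3 members called in each comparison with GV, in place of 6 and 5, and 2 between the MII groups. Of the members, just ITPR1, ITPR3, ATP2A2 and CAMK2G were still tested under it, and none of these changed its call. The lower member counts thus come from members no longer tested. This filter called 4620 and 5586 of all genes against GV, in place of 7961 and 9258, and 16, 21 and 9 list genes in place of 31, 42 and 15. Fewer genes were tested, and some list genes that were still tested lost their call. HSP90B1, of the store lumen list, lost it for IVM MII and IVO MII against GV (edgeR adjusted p = 0.0832 and 0.152). Leaving out 1 library gave 19 to 34 list genes for IVM MII against GV. Between the MII groups it gave 2080 to 3576 genes in place of 3895, 1 to 3 members and 9 to 17 list genes; the lowest values of genes and members were those without IVM MII replicate 2, and 2571 genes and 9 list genes were left without IVM MII replicate 1. For IVM MII against GV, list genes called and all genes called both fell without any 1 of the GV or IVM MII libraries. With the replicate block, TRPM7 had 0.86 (adjusted p = 0.0506) for IVM MII against GV and STIM2 -0.86 (adjusted p = 0.0533) between the MII groups, and no other member call changed. The replicates' deviations correlated at -0.14, 0.18 and -0.11 between groups, and the labels give no link. With the 4 compared libraries alone, the same 2 calls ended (adjusted p = 0.0606 and 0.0662). Depth limits what can be said of STIM1 and CAMK2D. STIM1 had 1 and 3 counts in the IVM MII libraries, and CAMK2D had 0 or 1 in each library.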
